A study of Rattus norvegicus with 24 samples.

Results

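Annexins are proteins that bind negatively charged phospholipids, such as the phosphatidylserine of the inner face of the plasma membrane, when calcium is present. Each is built of a conserved core of repeated domains, which docks on the membrane, and a variable N-terminal tail, which binds partners such as S100 proteins, ESCRT-associated calcium sensors and plasminogen activators. They are known for roles in resealing torn membranes, in exocytosis and endosome traffic, in the clearance of dying cells, and in the actions of glucocorticoids. In the brain they are made by neurons, glia and vessel cells to differing degrees.

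The 8 annexins described here are Anxa1, Anxa2, Anxa3, Anxa4, Anxa5, Anxa6, Anxa7 and Anxa11. They were chosen by gene symbol, with the differences between aged and young rats in these same arrays already known, so those differences are given as a description. Of 31099 probe sets on the array, 14 carried the symbol of exactly 1 of these genes, and they stood for all 8. Each was read in RNA of the CA1 field of the hippocampus, a field of pyramidal neurons needed for spatial learning. The rats were male Long-Evans rats, which received no treatment. The Aged Impaired group (8 arrays) and the Aged Unimpaired group (6 arrays) were 24 to 26 months old, and the Young group (9 arrays) was 6 months old. The aged rats had been assigned by a learning index from the Morris water maze, a swimming task with a submerged platform. Impaired rats performed worse than the young ones, and unimpaired rats performed within their range. The labels call each array a biological replicate, so an array stands for 1 rat sample, and how many there are limits the precision. Replicate 6 is missing from the labels of the unimpaired rats, and in the table Young replicate 9 sits between unimpaired arrays. Its label was followed, and without that array the counts of annexins called were the same in all 4 comparisons.

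Signals are on a log2 scale, on which a difference of 1 is a doubling. The arrays had median signals between 4.20 and 4.28, and each array's median correlation with the others across genes was between 0.990 and 0.994. Aged Impaired replicates 7 and 8 and Young replicate 5 had the lowest of these correlations. Some results are also given without them, from a fit added after the data were seen. Of the markers of the labelled tissue, all 9 neuronal markers and all 5 markers of CA1 pyramidal cells found on the array passed the signal limit, while 7 of the 8 choroid plexus and ependyma markers on the array were dim. The eighth, Ttr, read 6.30 to 9.50 in impaired, 4.74 to 7.79 in unimpaired and 5.69 to 9.50 in young rats, with its highest values in Aged Impaired replicate 6, Aged Unimpaired replicate 4 and Young replicate 2. A probe set was called dim unless its log2 signal was over 4 in at least 6 arrays. A gene was represented by its brightest probe set among those that passed, which left 9076 genes, each tested with limma and Benjamini-Hochberg adjustment over all of them at an adjusted p under 0.05.

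Of the 14 annexin probe sets, 10 passed the signal limit, and 7 of the 8 genes were tested. Anxa1, a mediator of glucocorticoid action that is plentiful in leukocytes, was the gene left out. Its single probe set read 3.73 to 3.96 in impaired, 3.76 to 3.83 in unimpaired and 3.77 to 3.97 in young CA1, so that it lay just under the limit of 4 in all 23 arrays and the groups overlapped fully. Just inside the limit was a secondary Anxa3 probe set (1367975_at), which was over 4 in 6 arrays, 4 of them impaired, 2 unimpaired and 0 young. Anxa4 passed through the aged arrays, in which it was high: it was over 4 in 7 impaired and 5 unimpaired arrays and in 1 young array. Passing in this way selects for a higher aged signal, so the gene's presence among the genes tested carries no weight of its own. Outside the 8 genes, Anxa8 with 1 probe set and Anxa9 with 2, were dim in every array.

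**Figure D1:**
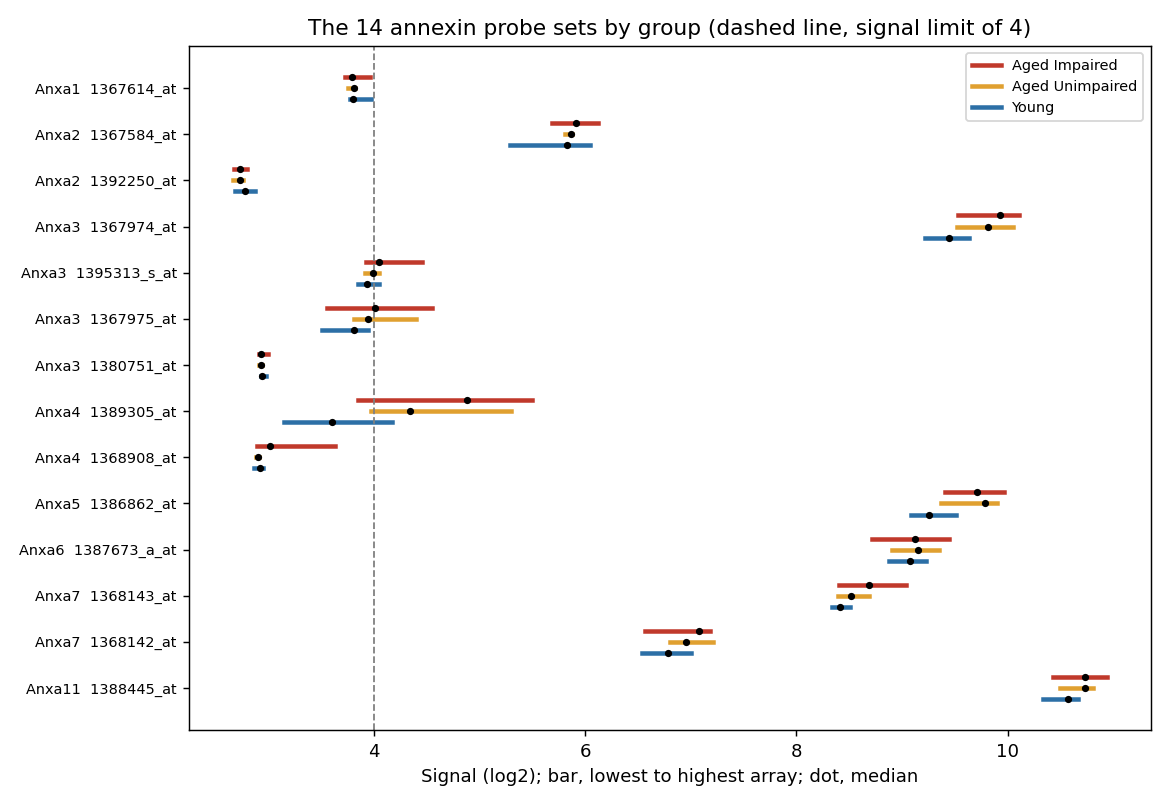
The 14 annexin probe sets run down the page, with log2 signal on the horizontal axis. Each bar spans the lowest to the highest array of a group, each dot is the group's median, and the dashed line is the signal limit of 4. The single Anxa1 probe set lies left of the line in every array, and the Anxa4 probe set that passed crosses it in all 3 groups.

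In the comparison of aged with young CA1, Anxa4, Anxa3, Anxa5 and Anxa7 passed the threshold, all higher in aged rats, while Anxa2, Anxa6 and Anxa11 did not pass. Of the 9076 genes, 3.09% were called higher and 0.628% lower in aged rats. The same 4 annexins passed in impaired against young CA1, where 3.09% of genes were called higher. Anxa5 alone passed in unimpaired against young CA1, where 0.617% were called higher. These contrasts were known when the genes were chosen, so nothing is read from the counts. Both aged groups are compared with the same young arrays. No annexin passed in impaired against unimpaired CA1, where 0% of genes were called in either direction with limma and 629 genes, Anxa7 among them, had an unadjusted p under 0.05.

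The promoters of the 4 annexins called higher in aged rats are shown so that the genes described below can be seen beside one another, taken from RefSeq on build GRCr8 as 250 bases before to 50 bases after 1 start site per gene. That site lies inside the annotated gene, by 21 bases for Anxa4, 81 for Anxa3, 239 for Anxa5 and 1860 for Anxa7, so the windows need not hold the outermost start. They lie at chr4:120798464-120798763 on the minus strand for Anxa4, chr14:13085548-13085847 on the minus strand for Anxa3, chr2:121272647-121272946 on the minus strand for Anxa5 and chr15:3870790-3871089 on the plus strand for Anxa7. Each is written 5′ to 3′ along the gene, and capitals mark every match, on either strand, to the motifs listed after the sequences.
Anxa4: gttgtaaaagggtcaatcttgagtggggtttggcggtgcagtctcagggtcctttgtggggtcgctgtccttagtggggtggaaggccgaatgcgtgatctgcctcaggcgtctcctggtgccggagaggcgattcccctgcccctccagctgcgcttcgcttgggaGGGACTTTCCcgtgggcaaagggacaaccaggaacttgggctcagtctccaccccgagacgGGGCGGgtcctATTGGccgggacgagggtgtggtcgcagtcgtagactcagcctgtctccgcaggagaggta
Anxa3: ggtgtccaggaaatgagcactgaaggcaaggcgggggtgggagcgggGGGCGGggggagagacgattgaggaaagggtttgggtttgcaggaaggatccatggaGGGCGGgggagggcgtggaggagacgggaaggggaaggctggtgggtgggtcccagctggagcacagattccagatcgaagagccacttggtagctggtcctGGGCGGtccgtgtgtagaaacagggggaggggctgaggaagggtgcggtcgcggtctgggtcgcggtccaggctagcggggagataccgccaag
Anxa5: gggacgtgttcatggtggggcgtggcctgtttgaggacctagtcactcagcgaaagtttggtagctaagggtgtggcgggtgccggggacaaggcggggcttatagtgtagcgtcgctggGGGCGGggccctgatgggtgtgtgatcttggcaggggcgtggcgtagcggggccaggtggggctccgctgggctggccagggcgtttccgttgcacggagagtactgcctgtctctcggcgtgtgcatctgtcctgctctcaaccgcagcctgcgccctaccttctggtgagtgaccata
Anxa7: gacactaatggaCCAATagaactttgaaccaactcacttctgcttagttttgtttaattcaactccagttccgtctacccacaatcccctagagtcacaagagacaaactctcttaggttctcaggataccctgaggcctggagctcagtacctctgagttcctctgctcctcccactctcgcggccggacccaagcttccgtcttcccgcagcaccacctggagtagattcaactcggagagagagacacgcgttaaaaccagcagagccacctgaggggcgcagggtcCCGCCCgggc

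The motifs searched were the GC box GGGCGG, the CCAAT box CCAAT, the TATA box TATAAA, the AP-1 site TGANTCA, the cAMP response element TGACGTCA, the E-box CACGTG and the kappaB consensus, which is given by name alone. No capital run in the 4 sequences belongs to more than 1 motif. All 4 sequences held at least 1 GC box, which 33.06% of the 33469 RefSeq rat promoters of the same length hold. Anxa3 held 3 of them, at -203, -146 and -44 from that site, and Anxa4, Anxa5 and Anxa7 held 1 each. The GC box of Anxa7 lies after the site, from 40 to 45. Anxa4 and Anxa7 each held 1 CCAAT box, a motif found in 37.49% of promoters. Anxa4 also held 1 match to the kappaB consensus, from -83 to -74, which 7.514% of promoters hold. The GC content was 62.3% for Anxa4, 65.3% for Anxa3, 64.3% for Anxa5 and 54.3% for Anxa7, against a median of 51.67% over all promoters. Of the annexins that were not called, Anxa2 held 2 GC boxes, a TATA box and an AP-1 site, and Anxa11 held 4 GC boxes. No promoter of Anxa6 was among the sequences searched. The TATA box is in 14.22% and the AP-1 site in 7.329% of promoters. Anxa1 held a TATA box and no GC box, in a window whose start site lies 3007 bases inside the annotated gene. A match to these letters is a description of the sequence and does not show that a factor binds there.

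Anxa4 binds membranes of epithelial and other cells and is known to limit lateral movement within them. Its signal had a lowest, median and highest value of 3.85, 4.89 and 5.50 in impaired rats, 3.97, 4.34 and 5.30 in unimpaired rats and 3.15, 3.60 and 4.17 in young rats. The aged and young groups overlapped at their edges, with 6 of the 8 impaired and 4 of the 6 unimpaired arrays above every young array. The mean was 4.62 ± 0.52 in aged rats (SD, n = 14) and 3.61 ± 0.28 in young rats (SD, n = 9), a log2 difference of 1.01 ± 0.17 (SE). Because 8 of the 9 young arrays read under the signal limit, where background is a large part of a signal, no linear fold is given for this fit. With every value under 4 raised to 4, the aged mean was 4.63 and the young mean 4.02, a difference of 0.61. The difference against young was 1.13 ± 0.20 in impaired rats, which passed the threshold, and 0.85 ± 0.22 in unimpaired rats, which did not. The unimpaired difference passed when impaired replicate 1, impaired replicate 4 or young replicate 1 was left out. A second Anxa4 probe set was dim in every array, at 2.89 to 3.63 in impaired, 2.88 to 2.92 in unimpaired and 2.87 to 2.96 in young rats. Aged Impaired replicate 4 was the highest array in both Anxa4 probe sets, at 5.50 and 3.63.

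Anxa3, which was first described as an enzyme of inositol phosphate metabolism and is abundant in neutrophils and in rodent microglia, read 9.53, 9.93 and 10.11 in impaired rats, 9.52, 9.81 and 10.05 in unimpaired rats and 9.22, 9.45 and 9.63 in young rats (lowest, median, highest). In 7 of 8 impaired and 4 of 6 unimpaired arrays it was above every young array. The mean was 9.84 ± 0.19 in aged rats (SD, n = 14) and 9.45 ± 0.14 in young rats (SD, n = 9), and the log2 difference of 0.39 ± 0.07 corresponds to 1.31-fold (95% confidence interval 1.18 to 1.45). It passed in impaired rats (0.44 ± 0.08) and did not pass in unimpaired rats (0.33 ± 0.09). The other Anxa3 probe sets did not pass when fitted on their own. The aged minus young difference was 0.27 ± 0.09 for 1367975_at and 0.13 ± 0.05 for 1395313_s_at, and the fourth, 1380751_at, was dim. Both 1367975_at and 1395313_s_at read near the signal limit. The first was over 4 in 4 impaired, 2 unimpaired and 0 young arrays, and the second in 7, 3 and 2. Passing mainly through the aged arrays selects for a higher aged signal, so their differences carry no weight as second measurements. With the group means taken off, the brightest probe set correlated over 23 arrays at r = 0.38 with 1367975_at and at r = 0.09 with 1395313_s_at, while 1367975_at and 1395313_s_at correlated with each other at r = 0.56.

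Anxa5, which binds exposed phosphatidylserine and is used as a probe of dying cells, was called in both aged groups. It read 9.41, 9.71 and 9.97 in impaired rats, 9.37, 9.79 and 9.90 in unimpaired rats and 9.09, 9.26 and 9.51 in young rats (lowest, median, highest). In 5 of 8 impaired and 5 of 6 unimpaired arrays it was above every young array. The mean was 9.70 ± 0.20 in aged rats (SD, n = 14) and 9.29 ± 0.13 in young rats (SD, n = 9), a log2 difference of 0.42 ± 0.08 or 1.34-fold (95% confidence interval 1.20 to 1.49). The difference was 0.41 ± 0.09 in impaired and 0.43 ± 0.09 in unimpaired rats, and both passed. The unimpaired call was lost when unimpaired replicate 1, 3, 4 or 7 was left out. Anxa5 has 1 probe set on the array, so no second measurement of it exists here.

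Anxa7, also called synexin, promotes contact and fusion of secretory granule membranes. It read 8.40, 8.69 and 9.04 in impaired rats, 8.40, 8.52 and 8.69 in unimpaired rats and 8.34, 8.41 and 8.51 in young rats (lowest, median, highest). In 7 of 8 impaired and 4 of 6 unimpaired arrays it was above every young array. Its mean was 8.62 ± 0.18 in aged rats (SD, n = 14) and 8.42 ± 0.06 in young rats (SD, n = 9), a log2 difference of 0.20 ± 0.06 or 1.15-fold (95% confidence interval 1.06 to 1.25). The difference from young was 0.27 ± 0.06 in impaired rats, which passed, and 0.11 ± 0.07 in unimpaired rats, which did not. The aged call stood near the threshold and was lost in 16 of 23 fits that each left out 1 array, while the impaired call held in all 23. The second Anxa7 probe set, 1368142_at, gave differences from young of 0.20 ± 0.08 in impaired and 0.19 ± 0.09 in unimpaired rats, neither of which passed. The pair of probe sets correlated at r = 0.60 over 23 arrays with group means taken off. RefSeq annotates 4 pseudogenes of Anxa7 and 8 of Anxa2 in the rat, and how far their transcripts reach these probe sets was not tested.

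**Figure D2:**
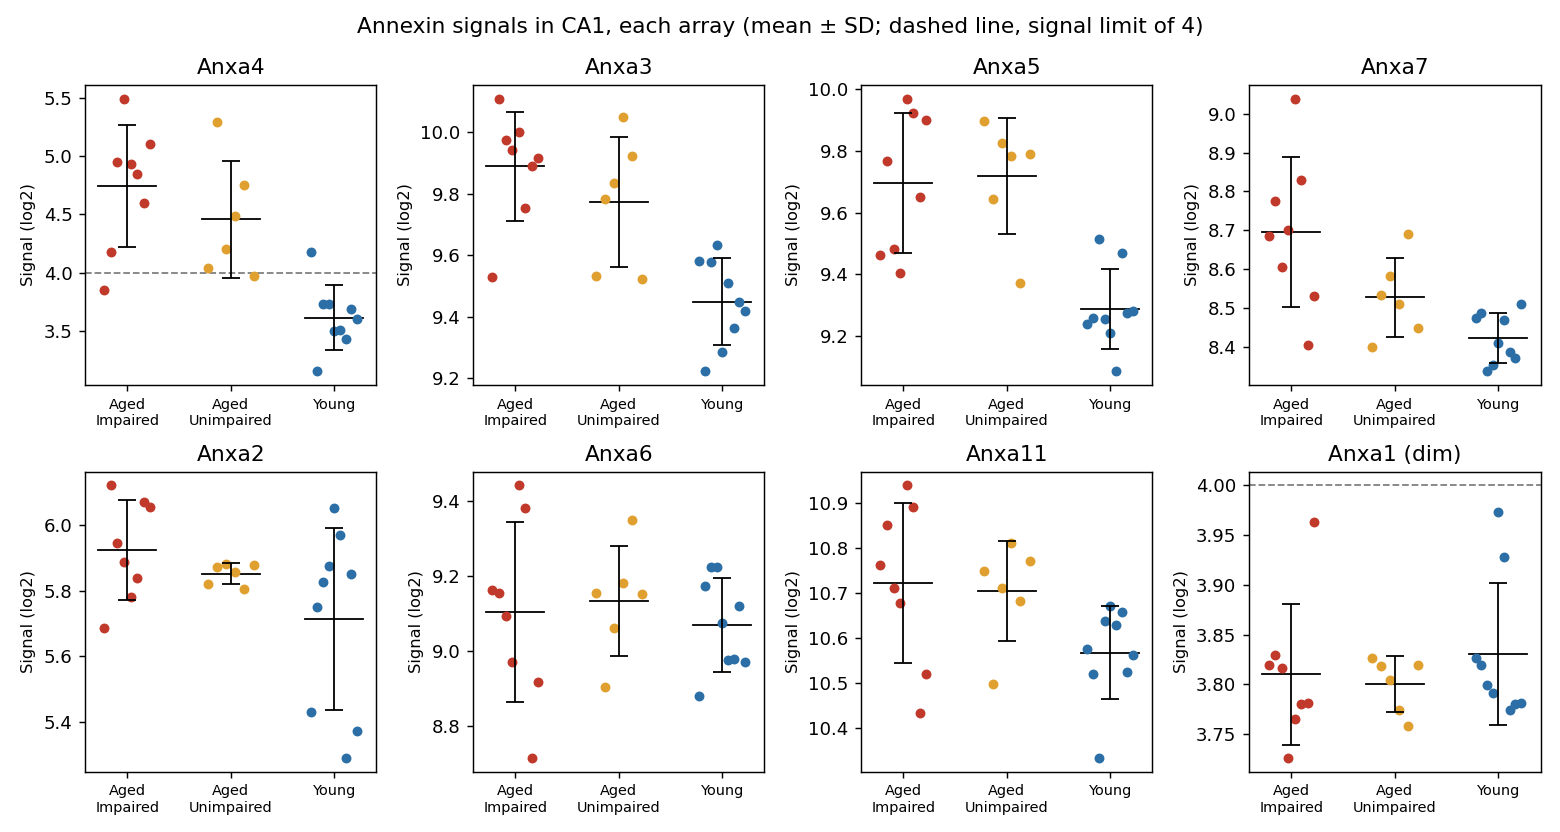
Each panel plots the log2 signal of 1 annexin in each array of the Aged Impaired (8), Aged Unimpaired (6) and Young (9) groups, with the mean and SD as bars and the signal limit of 4 as a dashed line where it lies in range. The vertical axes differ between panels. The aged points of Anxa4, Anxa3, Anxa5 and Anxa7 sit mostly above the young ones, and the 3 groups of Anxa6 and Anxa1 lie over one another.

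The other annexins tested had smaller aged minus young differences, which did not pass the threshold. Anxa2, which forms a tetramer with S100a10 and helps convert plasminogen at the cell surface, read 5.69, 5.92 and 6.12 in impaired, 5.81, 5.86 and 5.88 in unimpaired and 5.29, 5.83 and 6.05 in young rats. Its SD was 0.15 in impaired, 0.03 in unimpaired and 0.28 in young rats, and the young values enclosed the unimpaired ones. The aged minus young difference of 0.18 ± 0.08 did not pass. Its second probe set was dim.

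Anxa11, an RNA-granule and lysosome tether in neurons, read 10.43, 10.74 and 10.94 in impaired, 10.50, 10.73 and 10.81 in unimpaired and 10.33, 10.57 and 10.67 in young rats. In 6 of 8 impaired and 5 of 6 unimpaired arrays it was above every young array. Even so, the aged minus young difference of 0.15 ± 0.06 (95% confidence interval 0.03 to 0.27) did not pass. It passed at 0.20 when impaired replicates 7 and 8 and young replicate 5 were left out. That fit was added after the data were seen. Anxa6, which binds membranes through a core of doubled length and takes part in endosome and cholesterol traffic, read 8.71, 9.12 and 9.44 in impaired, 8.90, 9.15 and 9.35 in unimpaired and 8.88, 9.07 and 9.22 in young rats. The groups overlapped almost wholly. Its aged minus young difference was 0.05 ± 0.07, with a 95% confidence interval of -0.10 to 0.20.

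**Figure D3:**
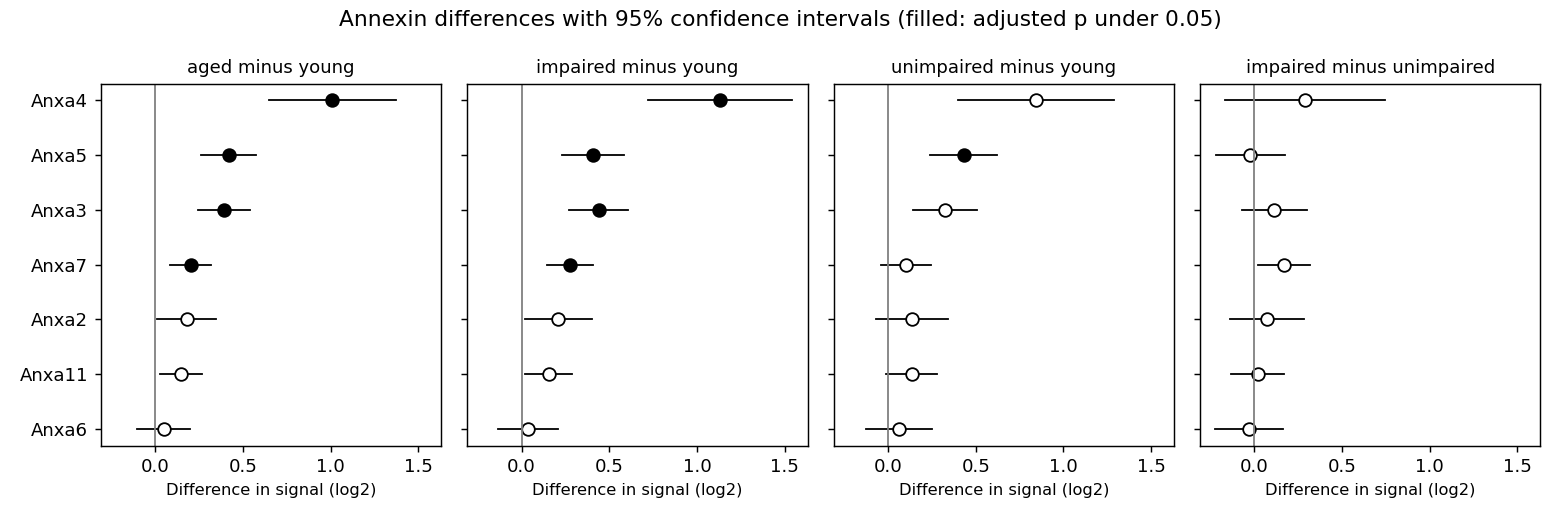
Differences in log2 signal of the 7 tested annexins (rows) are drawn with 95% confidence intervals for aged minus young, impaired minus young, unimpaired minus young and impaired minus unimpaired, with filled points where the adjusted p was under 0.05. Filled points stand in the first 3 panels (4, 4 and 1), and the last has none.

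Learning impairment was compared within the aged rats, for genes chosen with earlier results of these arrays known. The log2 differences of the 7 annexins, impaired minus unimpaired, had a median of 0.07, against -0.01 over all genes tested. Anxa4 had a difference of 0.29 ± 0.22 (95% confidence interval -0.17 to 0.74, adjusted p = 0.839, limma). Anxa7 had 0.17 ± 0.07 (95% confidence interval 0.02 to 0.32), with an unadjusted p of 0.0249 and an adjusted p of 0.651 in limma. The groups of Anxa7 overlapped, since the lowest impaired array read 8.40 and the lowest unimpaired array also read 8.40, and its second probe set gave 0.01 ± 0.09. Anxa3 had 0.12 ± 0.09 (limma adjusted p = 0.839), Anxa2 0.07 ± 0.10 (0.934), Anxa11 0.02 ± 0.07 (0.981), Anxa5 -0.02 ± 0.10 (0.982) and Anxa6 -0.03 ± 0.09 (0.975). The interval of Anxa5 ran from -0.22 to 0.17, which leaves room for a difference of either sign. A missed threshold in this comparison does not show that the aged groups have the same level.

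Some markers of other cells differed with age in the same arrays, in which 3.09% of all genes were called higher and 0.628% lower. Of 15 microglia and macrophage markers, 12 were tested and 7 were called higher in aged than in young CA1 and none lower: Fcer1g, C1qa, Tyrobp, Aif1, C1qc, Trem2 and Ctss, by 0.32 to 0.59 on the log2 scale. The other tested markers, P2ry12, Cx3cr1, Csf1r, C1qb and Tmem119, were not called, and Tmem119 differed by -0.06 ± 0.11. Cx3cr1 was over the signal limit in 6 aged and 3 young arrays. The median over the 12 was 0.34, against 0.01 over all genes. Their summed linear signal ranged from 9891 to 12375 in impaired, 9536 to 11846 in unimpaired and 7495 to 9452 in young rats. The brightest marker, Ctss, weighs most in this sum, and its own aged and young values overlapped. Its lowest unimpaired array read 12.25 and its highest young array 12.27. The markers Itgam, Cd68 and Ptprc were dim. Of 10 astrocyte markers, 2 were called higher, Gfap (0.51 ± 0.07) and Vim (0.49 ± 0.09), and none lower. The rest were not called, and the median over the 10 was 0.05. The summed signal of the 10 ranged from 60778 to 74279 in impaired, 63028 to 69857 in unimpaired and 57201 to 66620 in young rats. Of 8 neutrophil and blood markers on the array 6 were dim, S100a8 and S100a9 included, and of the 2 tested none was called. Of 9 neuronal markers none was called in either direction. Vessel markers were called lower or not at all. Of 10 endothelial markers, Slco1c1 (-0.41 ± 0.08) and Sox17 (-0.40 ± 0.09) were called lower, with a median of -0.03, and of 6 pericyte and smooth muscle markers Myh11 (-0.33 ± 0.09) was called lower, with a median of -0.10. Of 6 meningeal and fibroblast markers tested, Ptgds (0.56 ± 0.10) and Bmp6 (0.49 ± 0.07) were called higher and Igf2 (-0.84 ± 0.16) and Dcn (-0.71 ± 0.15) lower, with a median of -0.34. What part the cell makeup of the tissue had in the annexin differences was not tested. In such bulk RNA, more cells of a type and more RNA in each cell cannot be told apart.

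Genes whose proteins work with annexins, from a list of 28 written with earlier results of these arrays known, were set beside them. On the array 25 were found, of which 18 were tested and 7 were dim, among them S100a6, Plau, Plg, Plaur and Tlr2. In aged against young CA1, 3 of the 18 were called higher and none lower, against 3.09% higher and 0.628% lower over all genes. Their median log2 difference was 0.10, against 0.01 over all genes. S100a4, a calcium-binding partner of annexins linked to cell motility, read 3.43, 4.09 and 5.24 in impaired, 3.38, 3.87 and 4.91 in unimpaired and 2.84, 3.16 and 3.45 in young rats. It was over 4 in 4 impaired, 3 unimpaired and 0 young arrays. Like Anxa4 it passed the filter through the aged arrays, a route that selects for a higher aged signal. Its aged minus young difference was 0.92 ± 0.21, and 0.30 with values under 4 raised to 4. Of the 17 partner genes tested beside it, 2 were called higher. S100b, an astrocyte protein that binds Anxa6, was higher by 0.14 ± 0.03 on the log2 scale. Plat, the tissue plasminogen activator that Anxa2 complexes bind, was higher by 0.24 ± 0.07. That call was lost in 16 of 23 fits leaving out 1 array. It was also lost in 6 of 10 other settings, the fit without the 3 arrays of lowest correlation among them. S100a10, which joins Anxa2 in the tetramer, differed by -0.05 ± 0.08 and did not pass.

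**Figure D4:**
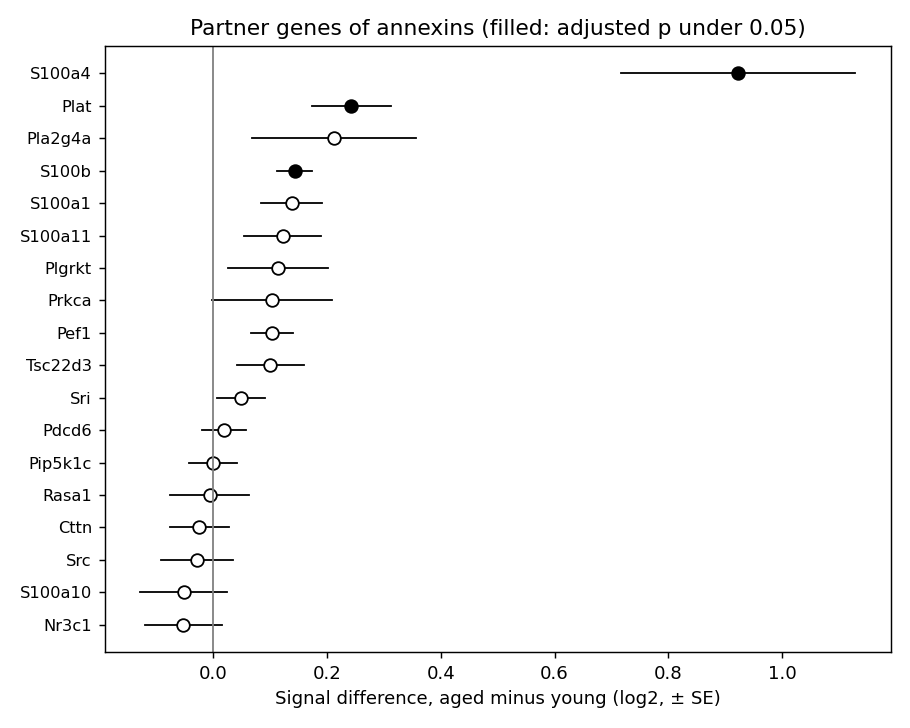
Log2 signal differences (aged minus young, ± SE) of the 18 tested partner genes run down the page from the highest to the lowest, with filled points where the adjusted p was under 0.05. S100a4 stands apart at 0.92, Plat and S100b are the other filled points, and S100a10 lies at -0.05.

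The membrane repair list, which holds machinery beside annexins such as dysferlin, calpains and ESCRT subunits, had 18 genes, of which 10 were tested and 6 were dim on the array. None was called in aged against young CA1, where 3.09% of all genes were called higher and 0.628% lower. The median difference was 0.06, against 0.01 over all genes. The members with the smallest p were Tsg101, an ESCRT subunit, at 0.09 ± 0.03 and Capn2, a calcium-dependent protease, at 0.11 ± 0.04. The list of phosphatidylserine recognition had 22 genes, of which 13 were tested. It holds receptors and bridging proteins, among other genes of phosphatidylserine exposure and the uptake of dying cells. Mertk, a receptor tyrosine kinase for bridging proteins that bind phosphatidylserine, was the single gene called, against the same shares over all genes. The median over the 13 was 0.04. Mertk read 8.50, 8.60 and 8.87 in impaired, 8.48, 8.61 and 9.06 in unimpaired and 8.03, 8.39 and 8.52 in young rats, with an aged minus young difference of 0.31 ± 0.07.

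Whether annexins varied together between rats was asked after the group means were taken off, so that age and learning group could not carry the relation. Of 23 pairs tested over 23 arrays with permutation tests, none passed the adjustment. The highest coefficients involved Anxa6, Anxa7, Anxa11 and Sri. Anxa7 with Anxa11 had Pearson's r = 0.62 (permutation p = 0.00976, adjusted 0.0906) and Spearman's rho = 0.37 (permutation p = 0.130, adjusted 0.653), and r was 0.34 without the 2 arrays farthest from the median. Anxa6 with Anxa7 gave r = 0.61 (permutation p = 0.0148, adjusted 0.0906) and rho = 0.32 (permutation p = 0.184), and 0.25 without the 2 farthest. Anxa6 with Anxa11 gave r = 0.60 (permutation p = 0.0114, adjusted 0.0906) and rho = 0.43 (permutation p = 0.0679), and 0.34 without them. Anxa7 with Sri, a calcium sensor that binds it, gave r = 0.61 (permutation p = 0.0157, adjusted 0.0906) and rho = 0.22 (permutation p = 0.372), and 0.25 without them. Anxa3 with Anxa4 gave r = 0.52 (permutation p = 0.0242, adjusted 0.111) and rho = 0.47 (permutation p = 0.0362), and 0.29 without the 2 farthest. Anxa2 and S100a10, whose proteins form a complex, gave r = -0.15 (permutation p = 0.601).

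**Figure D5:**
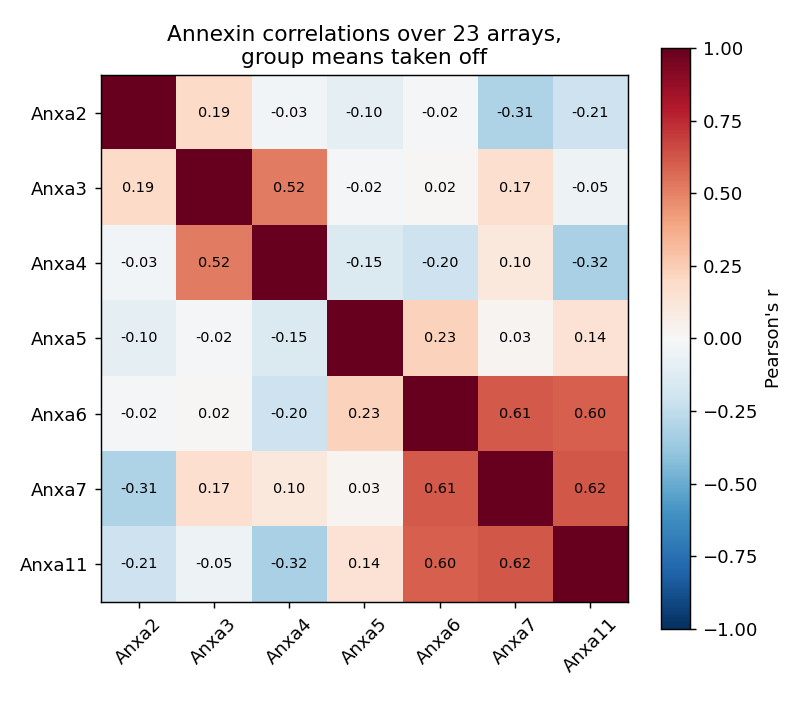
Pearson's r between the 7 tested annexins over 23 arrays with group means taken off, each cell giving its value and colour from -1 to 1. The block of Anxa6, Anxa7 and Anxa11 holds 0.60 to 0.62, Anxa3 with Anxa4 holds 0.52, and the other pairs lie between -0.32 and 0.23.

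The same pairs were also examined inside each group. Of 69 relations tested with exact permutation tests, 23 in each group, those that passed the adjustment were in the impaired rats. There, over 8 arrays, Anxa6 with Anxa11 gave r = 0.96 (exact p = 2.98e-04, adjusted 0.0163) and rho = 0.976 (adjusted 0.0274). Anxa7 with Anxa11 gave r = 0.94 (exact p = 4.71e-04, adjusted 0.0163), and its rho of 0.929 did not pass (adjusted 0.0707). Anxa6 with Anxa7 gave r = 0.93 (exact p = 0.00149, adjusted 0.0342), and its rho of 0.881 did not pass (adjusted 0.125). Without the 2 farthest arrays, replicates 5 and 7, the coefficients were 0.90, 0.93 and 0.80 in that order. Replicate 5 was the highest impaired array for each of the 3 genes, at 9.44, 9.04 and 10.94 for Anxa6, Anxa7 and Anxa11, and replicate 7 the lowest, at 8.71, 8.40 and 10.43. Replicates 7 and 8 also had the lowest median correlations with the other arrays, 0.9895 and 0.9899, and the part of array quality in the relation was not tested. In the same 8 arrays, 0.121% of 9075 other genes had an r with Anxa6 at least as high as that of Anxa11, and 0.760% one at least as high as that of Anxa7. For Anxa7, 0.562% had an r at least as high as that of Anxa11. An r over 0.9 was reached by 1.63% of genes with Anxa6 and 1.70% with Anxa7.

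In the unimpaired rats, the 3 coefficients were 0.33 for Anxa6 with Anxa7, 0.61 for Anxa6 with Anxa11 and -0.30 for Anxa7 with Anxa11. In the young rats they were -0.62, -0.45 and 0.24 in the same order. Whether these coefficients differ between the groups was not tested. In young rats, Anxa3 with Anxa4 gave r = 0.78 (exact p = 0.00887, adjusted 0.122), which did not pass.

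The genes whose signals followed each annexin most closely over the 23 arrays, with group means taken off, are given with r and no test. They share the arrays and the array-wide quality of the RNA with the annexin. For Anxa4 they were Abca8a (0.81), Snx1 (0.75) and Wsb1 (0.75). For Anxa3 they were Rnaset2 (0.76), Tmed10 (0.75) and Laptm5 (0.75), and for Anxa5 they were Mccc1 (0.74), Elac2 (0.70) and Dhrsx (0.69). Anxa7 went with Tcea2 (0.83), Kcng2 (0.82) and Ap2m1 (0.81), Anxa6 with Dusp14 (0.82), Isoc2b (0.81) and Retreg2 (0.81), and Anxa11 with Lgi1 (0.85), Coro7 (0.83) and Napg (0.82). Anxa2 went with Sipa1l3 (0.74), Kalrn (0.70) and Tomm40l (0.69). No gene appeared among the 3 closest of more than 1 annexin.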

How the data were processed

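The deposited table held log2 signals for 31099 probe sets, made by the authors with GCRMA (per the submitters' processing notes), a method that subtracts background by probe sequence, normalizes arrays and sums probes up into probe sets. Its version and settings are not given in the sources used here. The column of 1 unimpaired array, which the submitters omitted after quality control, was blank, so 23 arrays were analysed. Values were used as deposited.

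Gene symbols came from the platform annotation: 20832 probe sets carried 1 symbol, 436 several and 9831 none. The fit of the group means was made in R 4.3.3 by limma 3.58.1 under default moderation and adjustment over 9076 genes in each of 4 comparisons. The aged mean weights its groups by their 8 and 6 arrays. The 8 genes, the gene lists and the tests were chosen with earlier results of these data known. All 8 genes with all their probe sets are described, and the rule let the text name, of each list, the genes called or, with none called, the 2 with the smallest p. S100a10 and Sri come from pairs fixed with the lists, and dim genes are named as such. The microglia and macrophage markers not called are named beside those called. Correlations used 100000 permutations within groups, or exact permutations inside 1 group, in Python 3.11.15 with numpy 2.4.6. The pipeline was tested on simulated data. Sequences are from RefSeq (GRCr8). No batch or date of processing was used.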

Additional observations from a re-analysis of the deposited data

Results flagged for a closer look

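Anxa11 in Young replicate 3 stood apart from its group. Its log2 signal was 10.33, against 10.52 to 10.67 in the other young arrays, a gap that took up 0.550 of the group's range. Among all arrays, this one also had the control probe sets whose 3 prime ends most exceeded their 5 prime ends, by 1.55, and the link was not tested. In all, 30 groups of values were examined in this way, and chance flags about 1 in 20. The aged minus young difference of Anxa11 did not pass in any fit that left out 1 array.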

How the results depend on the processing

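In aged against young and impaired against young, Anxa3, Anxa4 and Anxa5 kept their calls in every fit that left out 1 array. They also kept them under the other alternatives run, with these exceptions. Anxa5 in impaired rats lost its call with the replicate number as a block. The secondary Anxa3 probe sets had no call when fitted on their own. Anxa4 was not tested, and so had no call, with a signal limit of 5 in place of 4. The aged call of Anxa7 was kept in 7 of 23 fits that left out 1 array (without impaired replicate 7 or 8, unimpaired replicate 1, 3, 4 or 7, or young replicate 9), and was lost with no filter on dim probe sets, with the mean of its probe sets and with each probe set fitted on its own. The count in unimpaired against young, 1 annexin, was 0 with the replicate block and 2 with only the groups compared, and ranged from 0 to 2 over the fits leaving out 1 array. The annexin partners called in aged against young fell to 1 with the replicate block. Same-numbered arrays did not vary together: the mean correlation of their deviations was -0.07 over 20 pairs, against 0.01 over 154 pairs of different numbers. The animals are separate, so the numbers do not pair them. Without group means taken off, 9 of the 23 correlations passed.

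In impaired minus unimpaired, no alternative called an annexin, and signs near 0 turned. The differences over fits leaving out 1 array ran from -0.093 to 0.018 for Anxa5, -0.078 to 0.027 for Anxa6 and -0.022 to 0.061 for Anxa11. Anxa6 was 0.067 without the 3 arrays of lowest correlation, a fit added after the data were seen. The Anxa3 probe set 1367975_at, near the signal limit, gave -0.0056. The Anxa3 probe set 1395313_s_at, also near that limit, gave 0.17 ± 0.07 (limma unadjusted p = 0.0198, adjusted p = 0.668). The cause of these changes was not tested. With a limit of 5 in place of 4, Anxa4 was not measured. Pairs with Anxa1 and with S100a6 were not run, since both were dim.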
